A study of Mus musculus with 6 samples.

Results

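The genes described here are 10 pattern recognition genes in the prefrontal cortex of aged mice, chosen as a fixed list of symbols and matched by Ensembl identifier. They are Tlr2, Tlr4, Tlr5, Tlr3, Tlr7 and Tlr9 of the Toll-like receptor family, Cd14, Myd88, Nod1 and Nlrp3. All 10 were present among the 21006 gene identifiers of the deposited tables. Of these 10 genes, 9 had a mean of at least 0.1 FPKM (fragment counts scaled for exon length and for library size) and were tested, and Tlr5 was below that filter. Tlr9 reached the filter only through the control animals. The comparison asked which of them differed between operated and control animals.

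The mice were male, wild type C57BL/6 animals labelled as 18 months old, while the sample titles carry the tag 17M, whose meaning is not given. The PND group (n = 3), which models postoperative neurocognitive disorder, breathed 1.5% isoflurane for 30 min and then had an exploratory laparotomy of 30 min under isoflurane, in which the abdomen was opened and its organs inspected. The incision was treated with lidocaine cream at 2.5% against pain and with povidone iodine against infection, until 3 days later. The CON group (n = 3) had no anesthesia and no operation, so isoflurane, surgery and wound care cannot be told apart. According to the methods of the study, both groups went through the same behavioral tests, received deep isoflurane when the tissue was taken and were perfused with saline. Tissue was taken shortly after the last of these tests, days after the operation, so the values describe that time and not the first hours. The 3 tissues per group were picked at random from a larger cohort, and pooling of animals is not mentioned.

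Toll-like receptors are membrane proteins of innate immunity that bind microbial molecules or molecules released by damaged cells. TLR2, TLR4 and TLR5 act at the cell surface, and TLR3, TLR7 and TLR9 bind nucleic acids in endosomes. Most of them signal through the adaptor MyD88 toward NF-kappaB and inflammatory cytokines, whereas TLR3 uses the adaptor TRIF. NOD1 and NLRP3 are sensors of the cytosol, and NLRP3 assembles the inflammasome, which activates caspase-1. In the brain these genes are known mostly from microglia, with some expression in astrocytes, endothelium and border macrophages. In bulk tissue, fewer cells of a type and less RNA per cell cannot be told apart.

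The tissue label held in all samples, as 10 of 10 cortical excitatory neuron markers were detected in each and their summed level was 224.34 to 350.42 FPKM. All 20 microglia markers were detected in each sample as well. Steps between low FPKM values gave an estimated depth of 7201401 to 9393008 fragments per sample, and the sum of all FPKM was 215640 to 240447. CON replicates 1 and 2 stood apart from each other in the level of GC-rich genes. Among the most GC-rich decile of the genes, each taken relative to its own mean, the median was -0.56 in CON replicate 1 and 0.49 in CON replicate 2 on the log2 scale, with -0.30 in PND replicate 2 and 0.37 in PND replicate 3. Several of the 10 genes are GC-rich, and their values are therefore also given after correction for GC content.

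Only Tlr7 passed the cut-off used here, an absolute log2 fold change above 1 with an unadjusted p below 0.05 in limma, and it was higher in PND. The thresholds are those of the study, which took its fold changes from the FPKM values themselves, whereas here they are taken on log2(FPKM + 0.1). As plain ratios of mean FPKM, Tlr7 at 2.45 and Tlr9 at 0.47 would both meet the fold threshold, and of these only Tlr7 had a p below 0.05. That was 1 of the 9 genes tested, or 1 of the 10 in all, and over all 18185 genes tested 1.33% passed the cut-off in either direction. Tlr7 was also the single gene of the 9 whose 3 PND values all lay above the 3 CON values, while 7.66% of all genes tested had groups that did not overlap in either direction. After Benjamini-Hochberg adjustment over all genes in limma, 0 of the 9 genes were below 0.05 (adjusted p 0.9999 for each), beside 1 before adjustment, and voom on estimated fragments also gave 0. Over all 18185 genes tested only 2 were below 0.05 after adjustment, so the count of 0 is nothing particular to these genes. Of the 9 genes 4 were higher and 5 lower, the latter including Tlr9, which passed the filter only through CON. The median log2 fold change of the 9 genes was -0.27, beside 0.01 over all genes tested. That median was 0.03 without CON replicate 2, -0.12 without PND replicate 1, -0.13 without CON replicate 1 and -0.11 with a pseudocount of 1, so neither its sign nor its size was stable.

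**Figure D1:**
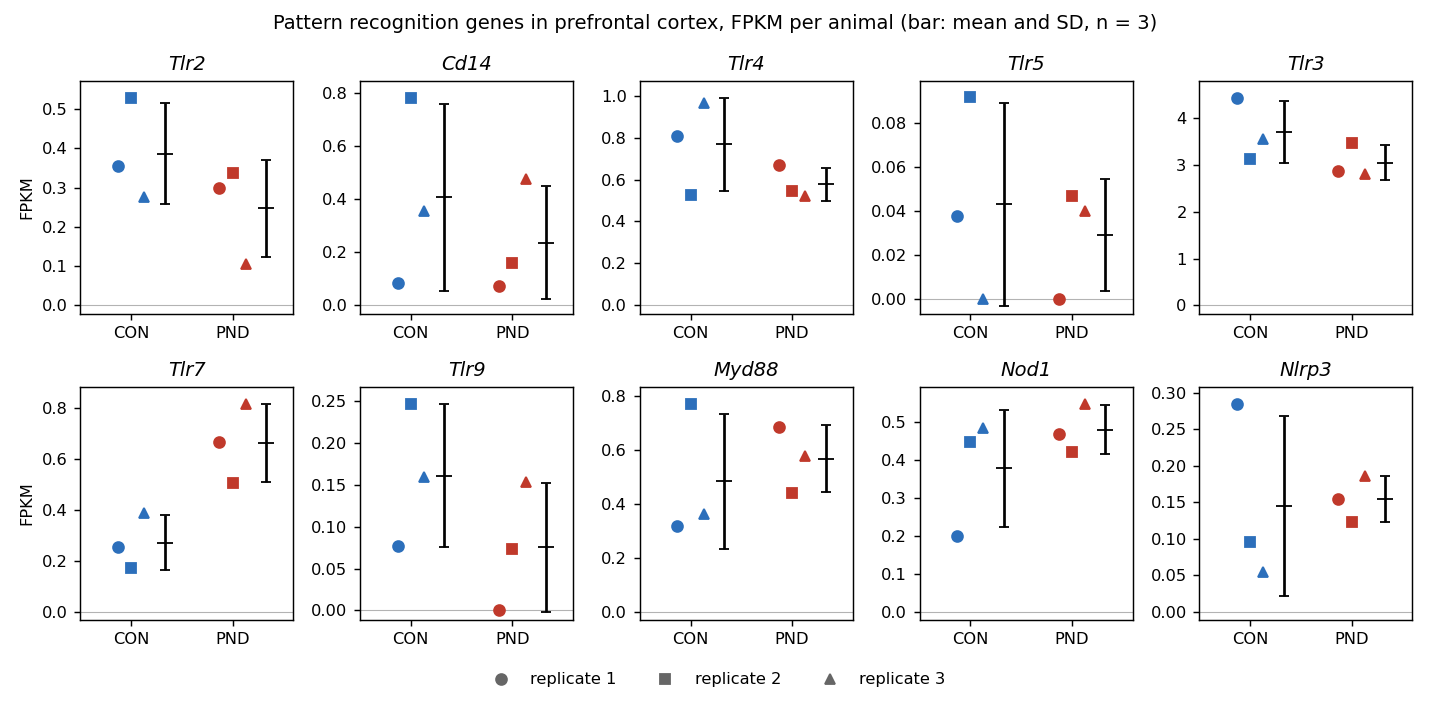
FPKM of each of the 10 genes in each animal, one panel per gene with its own vertical axis; blue points are CON, red points are PND, the marker shape is the replicate number, and the black bar is the mean and SD (n = 3). The Tlr7 points of PND (0.506 to 0.815 FPKM) lie above those of CON (0.171 to 0.387 FPKM), and in the other 9 panels the groups overlap.

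By level, Tlr3 stood above the rest. Its lowest sample had 2.80 FPKM and its highest 4.44 FPKM, and in 6 of 6 samples it was above Tlr4, the next gene. The order below it by the mean of the 6 samples was Tlr4 (0.672 FPKM), Myd88 (0.525), Tlr7 (0.467), Nod1 (0.428), Cd14 (0.321), Tlr2 (0.317), Nlrp3 (0.150), Tlr9 (0.118) and Tlr5 (0.036). Each of these genes overlapped the next in its range over the samples, so their order is not resolved beyond that spread. In CON alone Tlr7 had 0.271 ± 0.109 FPKM (SD, n = 3) and lay below Tlr3, Tlr4, Myd88, Cd14, Tlr2 and Nod1, and in PND alone its 0.663 ± 0.155 FPKM (SD, n = 3) was next to Tlr3, in a range that overlapped those of Tlr4 and Myd88.

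Tlr7 encodes an endosomal receptor for single-stranded RNA. The gene (ENSMUSG00000044583) lies on chromosome X from 167304929 to 167330558 on the minus strand of GRCm38, is protein-coding and has 6 exons after merging of overlaps, none of which overlaps another gene. Its level was 0.668, 0.506 and 0.815 FPKM in PND replicates 1 to 3 and 0.255, 0.171 and 0.387 FPKM in CON replicates 1 to 3. The lowest PND sample was thus above the highest CON sample, by less than the distance between the PND samples. The values of the 6 samples fell on whole steps that correspond to 34, 23 and 44 fragments in PND and 11, 8 and 16 fragments in CON, 101 against 35 over the groups. By the annotated exon length they would be 71.7 against 24.8 fragments, so the absolute number depends on the gene model while the ratio does not. The ratio of the mean FPKM was 2.45. On the log2(FPKM + 0.1) scale, which understates changes of low genes, the log2 fold change was 1.06 (SE 0.36, 95% interval 0.23 to 1.89). The unadjusted limma p was 0.0189 and the adjusted p was 0.9999.

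The Tlr7 call rested on each of several samples. It was lost without PND replicate 1 (log2 fold change 1.05, unadjusted limma p 0.054), without PND replicate 3 (0.92, p 0.0688) and without CON replicate 2 (0.86, p 0.0505). With a pseudocount of 1 the log2 fold change was 0.39 with an unadjusted limma p of 0.0146, and with quantile normalization it was 0.99 with a p of 0.0219, so in both the fold criterion alone was missed. The direction was the same in all 16 alternatives that could be fitted for Tlr7, and its adjusted p ranged from 0.8276 to 1. Correction for GC content, of which the Tlr7 transcript has 41.0%, gave 1.10 (unadjusted limma p 0.0131), and voom on estimated fragments gave 1.32 (p 0.0115).

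**Figure D2:**
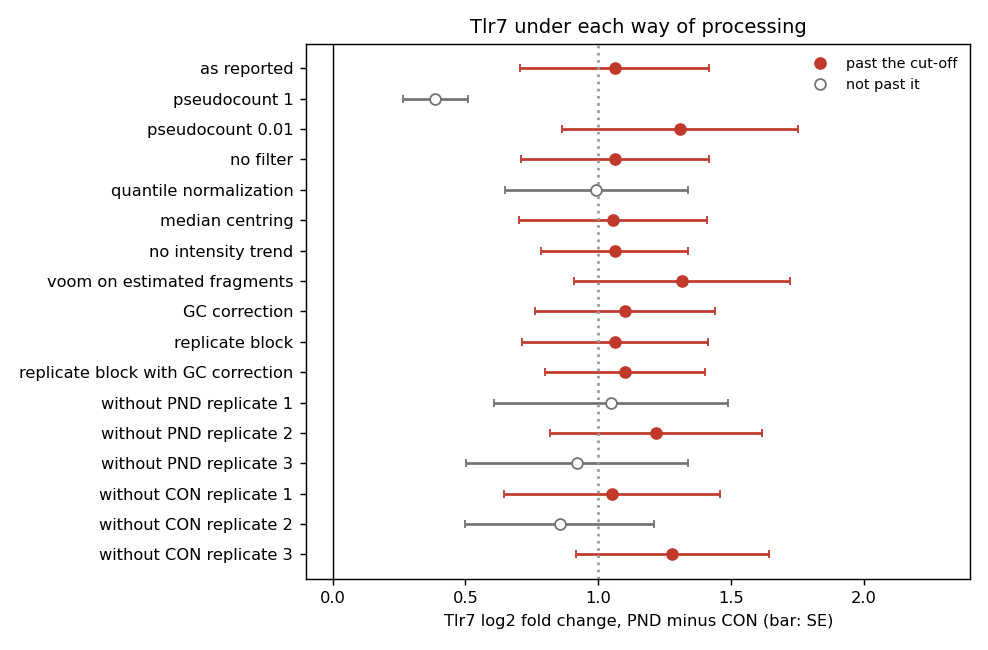
Log2 fold change of Tlr7 (PND minus CON, horizontal axis) with its SE under each way of processing (vertical axis); filled red points pass the cut-off and open points do not, and the dotted line marks a log2 fold change of 1. All points lie above 0, from 0.39 with a pseudocount of 1 to 1.32 with voom, and 5 of the 16 alternatives are open.

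Markers of the cells that could carry Tlr7 were compared beside it. The summed level of the 20 microglia markers was 97.23 to 114.43 FPKM in PND and 103.40 to 122.96 FPKM in CON, so the groups overlapped and the higher Tlr7 values were not accompanied by a higher microglia sum. Per 1000 FPKM of that sum, Tlr7 had 6.87, 4.71 and 7.12 FPKM in PND and 2.47, 1.39 and 3.50 FPKM in CON, a ratio chosen after the values were seen. Since the sum varied little between samples, this ratio largely restates the separation of the Tlr7 values and adds no support. Of the 20 microglia markers 8 were higher and 12 lower in PND, none passed the cut-off, and 1 had an unadjusted limma p below 0.05, beside 3.13% of all genes tested. This was P2ry12, a purinergic receptor of resting microglia, which had 4.61, 7.06 and 4.79 FPKM in PND and 10.7, 9.47 and 7.68 FPKM in CON, at a log2 fold change of -0.76 (SE 0.21), unadjusted limma p 0.00767 and adjusted p 0.9999. Olfml3 was the other microglia marker whose groups did not overlap, and it was also lower in PND. Of the defining microglial genes, the rest overlapped between the groups, with log2 fold changes of 0.52 for Tmem119, 0.15 for Cx3cr1 and -0.13 for Csf1r.

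Markers of other cell types were summed in the same way. The summed level of the border macrophage markers, of which 9 of 10 were in the tables, was 1.76 to 2.81 FPKM in PND and 1.25 to 1.85 FPKM in CON, and Pf4, Clec10a, Cd209f and Cbr2 were at 0 in 3 or more samples. Of the 4 border macrophage markers tested 3 were higher in PND, with a median log2 fold change of 0.56. Among them F13a1, a coagulation factor subunit, had 0.835, 0.515 and 0.760 FPKM in PND and 0.306, 0.406 and 0.460 FPKM in CON, with separate groups (0.70, unadjusted limma p 0.0573). Of the 11 neutrophil and monocyte markers, only Ccr2 and Csf3r were in the tables, with a sum of 0.49 to 0.72 FPKM in PND and 0.27 to 0.55 FPKM in CON. Nearly all of that sum was Csf3r, with 0.655, 0.458 and 0.695 FPKM in PND and 0.218, 0.489 and 0.252 FPKM in CON. Ccr2 ran the other way, with a mean of 0.017 FPKM in PND and 0.043 FPKM in CON. Only 5 of 10 lymphocyte markers were in the tables, with a sum of 1.24 to 1.58 FPKM in PND and 0.84 to 2.11 FPKM in CON. Most of that sum was Cd4, and Cd3e, Cd3g, Cd79a and Cd79b were at 0 in most samples and at most 0.194 FPKM. Astrocyte sums (341.31 to 460.97 against 297.60 to 595.10 FPKM), endothelial sums (34.24 to 43.35 against 30.89 to 34.72 FPKM) and choroid plexus sums (31.69 to 37.51 against 32.73 to 37.42 FPKM) overlapped between the groups. These sums are dominated by a few abundant genes, as Slc1a2, a glutamate transporter, alone ran from 68.5 to 368 FPKM and Enpp2 made up most of the choroid plexus sum with 29.0 to 36.2 FPKM. Of the 4 choroid plexus markers tested 3 were higher in PND, with a median log2 fold change of 0.44, and the groups of Clic6 were separate (0.80, unadjusted limma p 0.0319), while Ttr, a defining transcript of that tissue, was at 0 in 3 samples and at most 0.207 FPKM. The choroid plexus markers below the filter were mixed. Kcne2 was at 0 in every PND sample and at 0.151, 0 and 0.157 FPKM in CON. Otx2 and Cldn2 also averaged lower in PND, and Ttr and Folr1 averaged higher. Single astrocyte and endothelial markers, chosen after their values were seen, also had separate groups. Gfap, the intermediate filament of astrocytes, had 22.9, 17.7 and 24.7 FPKM in PND and 13.0, 14.9 and 13.0 FPKM in CON (log2 fold change 0.66, unadjusted limma p 0.00294). Gjb6, an astrocyte gap junction gene, was also higher (0.43, p 0.0373), and Aqp4, the astrocyte water channel, was lower (-0.36, p 0.0275), so 3 of 10 astrocyte markers did not overlap. Of 10 endothelial markers 2 did not overlap, Ly6c1, which was higher (0.79, p 0.00568), and Tek, a receptor of vessel maturation, which was lower (-0.38, p 0.0776), and over all genes tested 7.66% did not overlap. These 5 genes had an adjusted limma p of 0.9999. Haemoglobin genes summed to 2.76 FPKM in PND replicate 1 and to at most 0.19 FPKM in the other samples. The part of these cell types in the Tlr7 difference was not tested.

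For the other endosomal receptors the groups overlapped. Tlr3, the receptor for double-stranded RNA (ENSMUSG00000031639, chromosome 8, 45395665 to 45411080, minus strand, 8 exons), had 2.87, 3.48 and 2.80 FPKM in PND and 4.44, 3.14 and 3.55 FPKM in CON. The highest PND sample lay inside the CON range and the other PND samples lay below it. The log2 fold change was -0.27 (SE 0.19), with a 95% interval of -0.72 to 0.18 and an unadjusted limma p of 0.202, and it was -0.13 without CON replicate 1. Tlr3 had the narrowest interval of the 9 genes, which leaves out a change of 2-fold in either direction.

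Tlr9, the receptor for unmethylated CpG DNA (ENSMUSG00000045322, chromosome 9, 106222598 to 106226883, plus strand, 2 exons), was listed at 0 in PND replicate 1 and had 0.073 and 0.153 FPKM in PND replicates 2 and 3. In CON it had 0.077, 0.247 and 0.160 FPKM. These values correspond to 0, 2 and 5 fragments in PND and 2, 7 and 4 in CON, and a count of 0 in PND replicate 1 allows up to 0.098 FPKM (3 fragments, counting error only). Tlr9 averaged 0.075 FPKM in PND and 0.161 FPKM in CON, so it exceeded the filter of 0.1 FPKM only through CON. Its test is thus no independent support for a lower level. The log2 fold change of -0.62 (SE 0.52, unadjusted limma p 0.269) had a 95% interval from -1.84 to 0.60, so no difference was detectable at this depth. Its size depended on the treatment of the low values, from -0.11 with a pseudocount of 1 to -1.60 with a pseudocount of 0.01, with -1.41 by voom, -0.27 without PND replicate 1 and -0.39 without CON replicate 2. Among the other endosomal genes, Tlr13, a receptor for bacterial ribosomal RNA, averaged 0.910 ± 0.064 FPKM in the PND samples and 0.931 ± 0.095 FPKM in the CON samples (SD, n = 3). Tlr8, the family member closest to Tlr7, was below the filter with 5.5 fragments in PND and 7.8 in CON by annotated exon length (12 and 17 by whole steps). Unc93b1, the chaperone that carries these receptors to endosomes, had 0.428, 0.607 and 0.565 FPKM in PND and 0.067, 0.805 and 0.351 FPKM in CON, and the groups overlapped.

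Among the surface receptors, Tlr4 detects lipopolysaccharide together with Ly96 and Cd14. Tlr4 (ENSMUSG00000039005, chromosome 4, 66827584 to 66930284, plus strand, 6 exons) had 0.669, 0.543 and 0.520 FPKM in PND and 0.809, 0.527 and 0.967 FPKM in CON. CON replicate 2 fell among the PND samples, and the other CON samples were above all of them. The log2 fold change was -0.33 (SE 0.30, 95% interval -1.04 to 0.38, unadjusted limma p 0.313), or -0.16 without CON replicate 3 and -0.55 without CON replicate 2. Ly96, which binds the lipid part of the ligand, had a log2 fold change of 0.17 (SE 0.27), from a mean of 1.01 ± 0.133 FPKM in the PND samples and 0.893 ± 0.226 FPKM in the CON samples (SD, n = 3). Lbp, which delivers lipopolysaccharide to CD14, had 0.354, 0.140 and 0.137 FPKM in PND and 0.123, 0.136 and 0.051 FPKM in CON, so its groups did not overlap but were separated by less than 0.01 FPKM, and its unadjusted limma p was 0.247.

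Cd14 encodes the co-receptor that hands lipopolysaccharide to the TLR4 complex (ENSMUSG00000051439, chromosome 18, 36725067 to 36726798, minus strand, 1 merged exon). It had 0.072, 0.161 and 0.474 FPKM in PND and 0.085, 0.781 and 0.354 FPKM in CON, which corresponds to 1, 2 and 7 fragments against 1, 10 and 4 by whole steps, and to 11 against 16.5 in all by annotated exon length. The spread within each group was wider than the difference between them. Its log2 fold change was -0.51 (SE 0.69, unadjusted limma p 0.484), and over the samples left out in turn it ran from -1.10 without CON replicate 1 to 0.03 without CON replicate 2. Tlr2, the receptor for bacterial lipopeptides (ENSMUSG00000027995, chromosome 3, 83836272 to 83841767, minus strand, 3 exons), had 0.300, 0.336 and 0.106 FPKM in PND and 0.354, 0.529 and 0.277 FPKM in CON. Its groups overlapped, since CON replicate 3 lay below PND replicates 1 and 2, and the log2 fold change was -0.53 (SE 0.43, unadjusted limma p 0.253), or -0.19 without PND replicate 3 and -0.33 without CON replicate 2. Its partner Tlr6 had a log2 fold change of -0.55 (SE 0.43), and its other partner Tlr1 was below the filter.

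Tlr5, the flagellin receptor (ENSMUSG00000079164, chromosome 1, 182954788 to 182976044, plus strand, 5 exons), was the lowest of the 10 genes. It was listed at 0 in PND replicate 1 and CON replicate 3, and the other samples had 0.047 and 0.040 FPKM in PND and 0.038 and 0.092 FPKM in CON. By whole steps PND held 8 fragments and CON held 11, and by the annotated exon length they held 3.6 and 4.9. On the latter basis a count of 0 allows up to 0.071 FPKM in PND replicate 1 and 0.087 FPKM in CON replicate 3 (3 fragments). Without a filter its log2 fold change was -0.12 (unadjusted limma p 0.746).

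**Figure D3:**
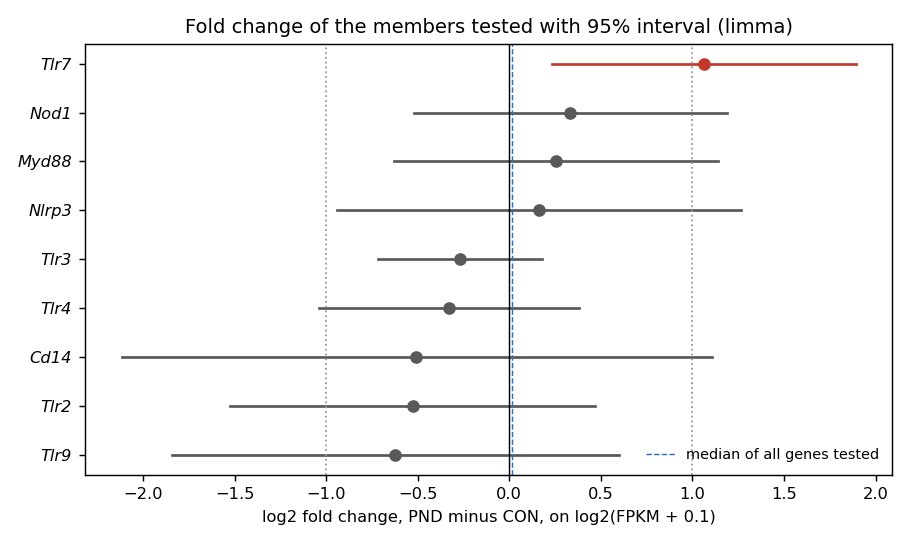
Log2 fold change (PND minus CON on log2(FPKM + 0.1), horizontal axis) of the 9 genes tested, with 95% intervals from limma; the dashed line is the median of all genes tested and the dotted lines mark a log2 fold change of -1 and 1. The interval of Tlr7 (0.23 to 1.89) lies above 0, and the other 8 intervals include 0.

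Myd88, the adaptor shared by the Toll-like receptors other than TLR3 (ENSMUSG00000032508, chromosome 9, 119335934 to 119341411, minus strand, 5 exons), had 0.685, 0.438 and 0.576 FPKM in PND and 0.318, 0.770 and 0.361 FPKM in CON. The highest sample was CON replicate 2 and the lowest was CON replicate 1, so the PND samples lay between CON samples. The log2 fold change was 0.26 (SE 0.38, 95% interval -0.63 to 1.14, unadjusted limma p 0.519), and over the samples left out in turn it ran from 0.06 without CON replicate 1 to 0.59 without CON replicate 2. Its exons overlap those of Acaa1a on the opposite strand, which had 0.602 to 1.72 FPKM, and the use of strand in counting was not given, so reads of the shared stretch could count for either gene. Of the other TIR adaptors, Tirap had a log2 fold change of -0.21 (SE 0.31). Ticam1, which encodes TRIF, had 0.793, 0.465 and 1.10 FPKM in PND and 0.446, 0.943 and 0.232 FPKM in CON. Irak4, the first kinase below MyD88, had a log2 fold change of 0.52 (SE 0.52), and Traf6, the ubiquitin ligase below it, had -0.15 (SE 0.18). In each of these adaptor and kinase genes the groups overlapped.

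Nod1, the cytosolic sensor of a peptidoglycan fragment (ENSMUSG00000038058, chromosome 6, 54923949 to 54972612, minus strand, 16 exons), had 0.469, 0.420 and 0.548 FPKM in PND and 0.199, 0.448 and 0.485 FPKM in CON. Apart from CON replicate 1, all samples lay between 0.420 and 0.548 FPKM. The log2 fold change was 0.33 (SE 0.37, unadjusted limma p 0.391), and it ran from 0.03 without CON replicate 1 to 0.51 without CON replicate 3. Ripk2, the kinase that NOD1 recruits, had a log2 fold change of 0.09 (SE 0.31). Nlrp3 (ENSMUSG00000032691, chromosome 11, 59541568 to 59566956, plus strand, 11 exons) had 0.154, 0.123 and 0.186 FPKM in PND and 0.285, 0.095 and 0.054 FPKM in CON, or 7, 5 and 9 fragments against 11, 4 and 2 by whole steps, and 16.5 against 13.4 in all by annotated exon length. The 3 PND samples were close to each other and lay inside the CON range, with a log2 fold change of 0.16 (SE 0.47, unadjusted limma p 0.743), which ran from -0.12 without CON replicate 3 to 0.54 without CON replicate 1.

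The partners of Nlrp3 in the inflammasome showed no difference past the cut-off either. Of the 11 genes of that list 10 were tested, 6 were higher and 4 lower in PND, and 0 had an unadjusted limma p below 0.05. The adaptor Pycard had 0.720, 0.627 and 0.352 FPKM in PND and 0.693, 0.811 and 0.459 FPKM in CON. Casp1, which cleaves pro-interleukin-1 beta, had 2.19, 1.94 and 0.996 FPKM in PND and 2.85, 0.738 and 1.58 FPKM in CON. Il1b itself was listed at 0.096 FPKM in PND replicate 1, or 1.62 fragments by annotated length, and at 0 in the other 5 samples, where 3 fragments would have given 0.167 FPKM or more. Il18, the other cytokine substrate of caspase-1, was abundant by comparison, with a log2 fold change of -0.20 (SE 0.15).

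The GC content of the transcripts and the library moved with the values of several of the 10 genes. Cd14 (52.5% GC), Tlr9 (56.2%) and Myd88 (53.5%) were each highest in CON replicate 2, the library in which GC-rich genes stood highest, as were Tlr2 (49.3%) and Tlr5. Nod1 (57.1%) and Myd88 were lowest in CON replicate 1, the library in which GC-rich genes stood lowest. After GC correction the deviation of Nod1 in CON replicate 1 went from -0.78 to -0.32 on the log2 scale, and that of Tlr9 in CON replicate 2 went from 0.77 to 0.43. That of Cd14 in CON replicate 2 went from 1.32 to 1.14, and that of Tlr7 in CON replicate 2 went from -0.94 to -0.83. Nlrp3 (51.0%) ran the other way, being highest in CON replicate 1, where its deviation went from 0.69 to 0.83 after correction. The part of GC content in the group differences was not tested beyond this correction.

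**Figure D4:**
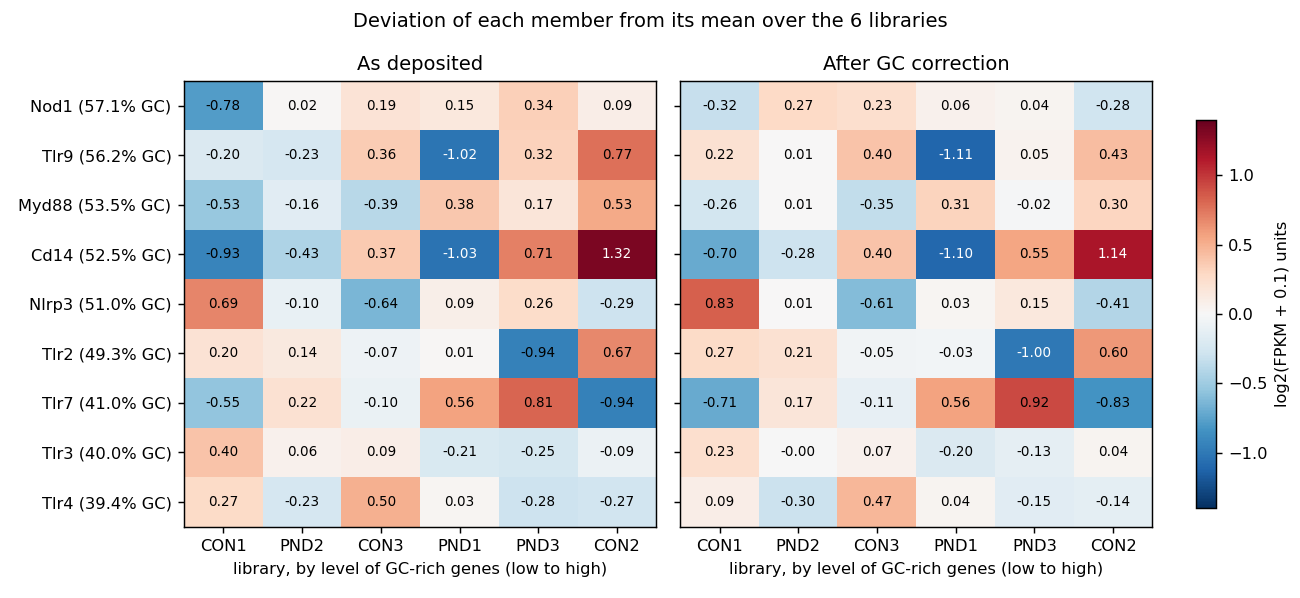
Deviation of each tested gene from its mean over the 6 libraries, in log2(FPKM + 0.1) units, as deposited (left) and after GC correction (right); rows are genes from high to low GC content, and columns are libraries from the lowest to the highest level of GC-rich genes. Cd14 in CON2 keeps a deviation of 1.14 after correction, Nod1 in CON1 goes from -0.78 to -0.32, and Tlr7 is above 0 in all PND libraries and below 0 in all CON libraries in both panels.

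The 9 genes did not vary together over the 6 samples. Of their 36 pairs, 5 had a Pearson r above 0.5 and 7 had one below -0.5, on the log2(FPKM + 0.1) scale, and after GC correction these counts were 4 and 7. The pair most alike was Tlr9 and Cd14 (r = 0.92 over 6 samples, 0.73 after GC correction), which share the high value of CON replicate 2. Tlr7 and Tlr2 ran opposite to each other (r = -0.83, and -0.84 after GC correction). These values describe 6 libraries whose GC dependence the genes share in part. For Tlr3, the gene with the highest level, the genes most alike in pattern were Cep135 (r = 0.99), Hus1 (r = 0.99) and Etnk1 (r = 0.989) among 12322 other genes with a symbol and an average of 1 FPKM or more. For Tlr7 they were Clic6 (r = 0.983), Zfp189 (r = 0.981) and Mrpl49 (r = 0.978), and this search was added after the Tlr7 values were seen. In both searches these were the highest r of 12322 genes for Tlr3 and 12323 for Tlr7, over 6 samples. With so few samples and so many genes, r values this high can arise by chance. For Tlr7 the r values also contain the difference between PND and CON by which the gene was singled out. Shared variation beyond this was not tested. Clic6, a chloride channel gene and a choroid plexus marker, had 1.88, 1.51 and 2.14 FPKM in PND and 0.962, 0.701 and 1.49 FPKM in CON.

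The wider pathway was examined through 8 lists of 116 genes, of which 103 were in the tables and 82 were tested. In PND 48 were higher and 34 lower, with a median log2 fold change of 0.07, and 1 gene passed the cut-off (Lcn2, at 0 in every CON sample), beside 1.33% of all genes tested. In 6 of the 82 genes the groups did not overlap, beside the 7.66% over all genes. The median log2 fold change was 0.21 for 11 other Toll-like and NOD-like receptors, 0.18 for 5 co-receptors and chaperones, 0.07 for 25 adaptors and signalling genes, 0.08 for 10 inflammasome genes and 0.21 for 9 induced targets. It was -0.08 for 8 cytosolic nucleic acid sensors. In the receptor, co-receptor, adaptor, inflammasome and sensor lists 0 genes were below 0.05 in limma before adjustment, beside 3.13% of all genes tested, a share at which few calls would be made in lists of this size.

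The single pathway gene past the cut-off was Lcn2, which encodes an iron-siderophore binding protein induced through Toll-like receptors. It had 0.163, 0.286 and 0.285 FPKM in PND, whereas every CON sample was listed at 0, so no fold change is given. By the annotated exon length the PND values correspond to 3.77, 5.93 and 7.01 fragments, and 3 fragments in a CON sample would have given between 0.140 and 0.159 FPKM. PND replicate 1 was thus close to what the depth of a CON sample could miss. Its mean over the 6 samples exceeded the filter of 0.1 FPKM only through the PND samples, so its call is no independent support for a difference and no p is given. Cxcl1, a neutrophil chemokine below the filter, had 0.080, 0.090 and 0.075 FPKM in PND and 0 in every CON sample, but each PND value corresponds to 1.33 fragments by annotated length, and 3 fragments in a CON sample would have given 0.196 to 0.222 FPKM, so no difference was detectable at this depth. Cxcl10, a chemokine induced by interferon, was at 0 in every PND sample and at 0.028 and 0.026 FPKM in CON replicates 1 and 2, or 0.47 fragments each. Of the 9 induced targets tested, 7 were higher and 2 lower in PND, and Lcn2 was the only one whose groups did not overlap. Tnf was listed at 0.074 FPKM in PND replicate 1, or 1.1 fragments, and at 0 in the other 5 samples, where 3 fragments would have given 0.195 FPKM or more. Nfkbia, the NF-kappaB inhibitor that the pathway induces, had 2.22, 4.25 and 4.39 FPKM in PND and 3.38, 3.35 and 3.53 FPKM in CON.

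Several pathway genes had separate groups without reaching the cut-off, and they were singled out after their values were seen. Irak3, which restrains signalling through IRAK kinases, had 0.596, 0.487 and 0.531 FPKM in PND and 0.399, 0.192 and 0.396 FPKM in CON (log2 fold change 0.61, SE 0.34, unadjusted limma p 0.114). Nlrp6, an inflammasome-forming receptor, had 0.299, 0.141 and 0.223 FPKM in PND and 0.037, 0.085 and 0.136 FPKM in CON (log2 fold change 0.79, SE 0.43), which was 42 fragments against 14 by whole steps and 29.7 against 9.9 by annotated exon length. It averaged 0.221 FPKM in PND and 0.086 FPKM in CON. Nlrp6 thus exceeded the filter of 0.1 FPKM only through the PND samples, so its values are no independent support for a difference and no p is given. Lower in PND were a pair of cytosolic RNA sensors, in a list of which 3 genes were higher and 5 lower. Ifih1, which encodes MDA5, had 0.940, 1.31 and 0.867 FPKM in PND and 1.57, 1.41 and 1.43 FPKM in CON (log2 fold change -0.48, SE 0.24, unadjusted limma p 0.0798). Ddx58, which encodes RIG-I, had 0.652, 0.568 and 0.673 FPKM in PND and 0.941, 0.731 and 0.866 FPKM in CON (log2 fold change -0.37, SE 0.25, unadjusted limma p 0.184). Dhx58, a related helicase, had a log2 fold change of 0.59 (SE 0.51) with overlapping groups, and Zbp1, a nucleic acid sensor below the filter, had 0.140, 0.052 and 0.110 FPKM in PND and 0, 0.051 and 0 FPKM in CON.

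**Figure D5:**
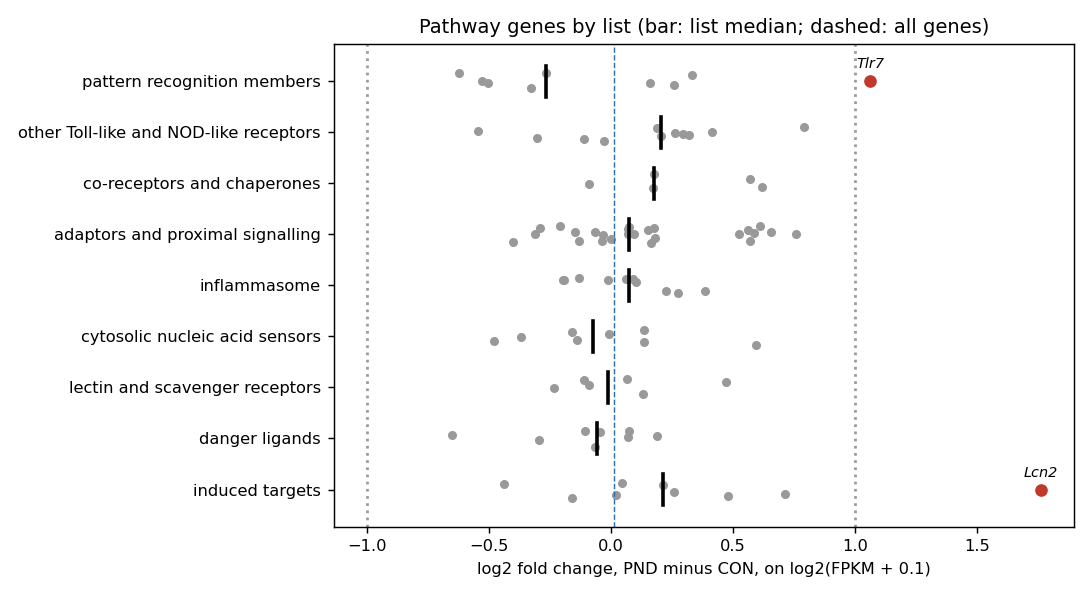
Log2 fold change (PND minus CON, horizontal axis) of every tested gene of the 10 pattern recognition genes and of the 8 pathway lists (vertical axis); black bars are list medians, the dashed line is the median of all genes tested, dotted lines mark a log2 fold change of -1 and 1, and red points passed the cut-off. Tlr7 (1.06) and Lcn2 are the red points, and the place of Lcn2 is set by the pseudocount, since all its CON values are 0, and is no fold change.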

How the data were processed

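Gene expression was measured by RNA sequencing of rRNA-depleted libraries from the prefrontal cortex of 3 PND and 3 CON mice. The authors filtered reads with Seqtk, aligned them with HISAT2, counted fragments per gene with StringTie, scaled them by TMM and deposited FPKM, in 1 column per animal. The submitters' processing notes name Bowtie 0.12.2 and the builds mm8 and mm9 without a role, and the annotation used for the mRNA was not given in the sources used here. Groups came from the treatment label and replicate numbers from the titles. Gene symbols matched 20866 of 21006 identifiers, and coordinates, exon lengths and GC content were those of GENCODE M21 on GRCm38. No protein or promoter sequence is shown for Tlr7.

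PND was compared with CON over all genes averaging 0.1 FPKM or more by limma 3.58.1 (R 4.3.3, lmFit and eBayes with intensity trend) on log2(FPKM + 0.1), two-sided, with no covariate and with Benjamini-Hochberg adjustment over the 18185 genes tested. This limma fit was tested on simulated data. Nothing in the labels ties samples to litters or batches, and p-values measure only the spread between these samples. Depth was estimated from the steps of FPKM times exon length at low values. Between 41.3% and 44.6% of low values lay within 0.05 of a whole fragment, against 10% without steps. For single genes the smallest set of whole numbers fitting all 6 values within 0.05 was taken as the fragments, so the true numbers may be multiples of these. Where the annotated exon length gave another number, both are given, and floors use that length. The 10 genes and the lists were chosen with earlier results of these data known. Named were all 10 genes, every pathway gene past the cut-off, 10 defining pathway genes, 4 defining microglial genes, markers past the cut-off, and the 3 genes most alike in pattern to the gene with the highest mean. Others were chosen after their values were seen. The list symbol of Cgas was updated from an older one after the tables were seen.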

Additional observations from a re-analysis of the deposited data

How the results depend on the processing

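The alternatives were another pseudocount, filter, scaling or variance trend, voom on estimated fragments, a GC correction, a replicate block, another criterion and leaving out each sample. The number of the 10 genes past the cut-off, 1 (Tlr7), was 0 with a pseudocount of 1, 0 with quantile normalization, 0 with an adjusted limma p below 0.05 (1 at an unadjusted p below 0.05, and 0 adjusted with voom as well), and 0 to 1 when a sample was left out. It was also 0 with a mean of at least 1 FPKM, since only Tlr3 is then tested. Lcn2 and Nlrp6 both passed the filter of 0.1 FPKM only through the PND samples. The number of pathway genes, 1 (Lcn2), was 0 under the pseudocount of 1, 0 under the filter at 1 FPKM, 0 with an adjusted p and 2 with voom, which added Nlrp6. It was 1 to 3 when a sample was left out, with Ticam2 and Dhx58 added without CON replicate 2 and Pik3ap1 added without CON replicate 3. The median log2 fold change of the 9 genes, -0.27, ranged from -0.295 to 0.028 when a sample was left out, and the positive value came without CON replicate 2. Single genes that changed sign were Cd14 (0.03 without CON replicate 2, from -1.10 to 0.03 over the samples left out) and Nlrp3 (-0.042 with quantile normalization, -0.12 without CON replicate 3, up to 0.54 over the samples left out), and the cause was not tested. Same-numbered samples did not deviate together (correlations of -0.049, -0.451 and 0.027 over 12387 genes), and the labels name no pairing. The highest correlations were 0.427 for PND replicate 2 with CON replicate 1 and 0.416 for PND replicate 3 with CON replicate 2. These samples were also alike in the level of GC-rich genes, so the check cannot exclude a pairing. With the replicate block the counts were 1 of the 10 genes and 1 pathway gene, with a median of -0.27, and with the block and GC correction 1, 1 and -0.22. The block changed no call. Depth limits Tlr5, Tlr9, Cd14, Nlrp3 and Tlr2, which held at most 27 fragments over a group.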

Other observations

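Lectin receptors and endogenous ligands, which sense or trigger the same pathways, were also examined. Of 10 lectin and scavenger receptor genes 6 were tested, 3 were higher and 3 lower in PND, and the median log2 fold change was -0.01. Mrc1, the mannose receptor of border macrophages, had 0.987, 1.12 and 0.887 FPKM in PND and 1.076, 0.791 and 0.990 FPKM in CON. Clec7a, the beta-glucan receptor, had 0.162, 0.181 and 0.183 FPKM in PND and 0.305, 0.140 and 0.159 FPKM in CON. In both genes the groups overlapped. Of 12 genes for endogenous ligands 8 were tested, 3 were higher and 5 lower, with a median of -0.06. Hmgb1, a nuclear protein that acts as a danger signal when released, had 4.47 FPKM in PND replicate 1 and 8.29 to 9.22 FPKM in the other samples. S100a8, a calcium-binding protein of neutrophils, was listed at 0.230 FPKM in PND replicate 1, or 1.41 fragments by annotated exon length, and at 0 in the other 5 samples, where 3 fragments would have given 0.460 FPKM or more. The haemoglobin genes also summed highest in PND replicate 1.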
